A study of Arabidopsis thaliana with 12 samples.

Results

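RD26, NAC019, NAC055, ATAF1, NAC032, ATAF2, NAC102, NAP, ORE1 and VNI2 are 10 Arabidopsis thaliana genes for NAC transcription factors of stress and senescence responses. They were chosen by gene identifier from what is known of these factors, with no value of these data in the rule. Earlier results of these data were known at that time, so the choice was not blind. The members make up 10 of 27655 genes in the deposited tables and 10 of 19528 genes tested. All 10 passed the filter on low genes, an average of 1 TPM or more across the 12 libraries, TPM being the abundance of a transcript per length, scaled to the same total of 1000000 in every library. NAP averaged 0.657 TPM with DMSO and passed through its levels with the compounds. RD26 is also called NAC072, and ORE1 is also called NAC092.

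The study measured messenger RNA by sequencing in whole Col-0 wild-type seedlings. The 4 groups were seedlings given 3'-butyl ABA, 3'-propyl ABA or abscisic acid (ABA), each at 10 µM, and seedlings given the solvent DMSO, with 3 libraries per group. Every group had 6 h in liquid medium with sucrose at 22 °C under continuous light. The seedlings were 8 days old by the sample labels and 7 days old by the series text. The derivatives are named for a propyl or a butyl group at the 3' position of ABA. Nothing in the labels says that replicates came from separate cultures, so p-values measure only the spread between these libraries, which may be technical. In RNA from whole seedlings, fewer cells of a type and less RNA per cell cannot be told apart.

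NAC proteins carry a conserved DNA-binding domain at their N-terminal end and form one of the large transcription factor families of plants. Many are induced by drought, salt, wounding or age. ABA, the hormone of water deficit, acts through PYR/PYL receptors, PP2C phosphatases and SnRK2 kinases on bZIP factors of the ABF group, which bind promoter elements called ABREs. In leaves, several stress NACs act downstream of ABA and ethylene to switch on chlorophyll breakdown and other steps of senescence.

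The promoters of the members differed in how many ABRE cores they held close to the gene, and 5 of them are shown because their genes span the range of responses described further on. The core was searched as the letters ACGTG on both strands, and a G-box, CACGTG, holds the core once on each strand and so counts as 2 matches. Each sequence is the 200 bases before the annotated start of the gene, 5′ to 3′ on the strand of the gene, from the TAIR10.1 genome, with core matches in capitals. The windows are chr1:29099639-29099838 on the plus strand for NAC032, chr1:19698483-19698682 on the minus strand for NAC019, chr4:13709171-13709370 on the minus strand for RD26, chr5:4196056-4196255 on the plus strand for VNI2 and chr5:2860559-2860758 on the minus strand for ATAF2.
NAC032: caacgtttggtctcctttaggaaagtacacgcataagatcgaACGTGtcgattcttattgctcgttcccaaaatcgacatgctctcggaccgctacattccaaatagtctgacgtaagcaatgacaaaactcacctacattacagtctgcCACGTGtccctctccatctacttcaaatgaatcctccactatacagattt
NAC019: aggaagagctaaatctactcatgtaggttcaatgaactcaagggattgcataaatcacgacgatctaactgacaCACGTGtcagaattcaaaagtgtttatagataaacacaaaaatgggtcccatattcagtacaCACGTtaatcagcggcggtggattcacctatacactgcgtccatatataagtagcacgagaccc
RD26: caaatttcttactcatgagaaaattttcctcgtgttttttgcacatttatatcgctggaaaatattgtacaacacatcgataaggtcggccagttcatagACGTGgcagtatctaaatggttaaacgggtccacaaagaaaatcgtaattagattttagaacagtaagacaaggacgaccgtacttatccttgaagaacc
VNI2: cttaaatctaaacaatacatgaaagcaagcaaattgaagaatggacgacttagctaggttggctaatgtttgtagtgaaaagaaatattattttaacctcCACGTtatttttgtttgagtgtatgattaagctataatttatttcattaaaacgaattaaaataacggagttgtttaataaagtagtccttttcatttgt
ATAF2: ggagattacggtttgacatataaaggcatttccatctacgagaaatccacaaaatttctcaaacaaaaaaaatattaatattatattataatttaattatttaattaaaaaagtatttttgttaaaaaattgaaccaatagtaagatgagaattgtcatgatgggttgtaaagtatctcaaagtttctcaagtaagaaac

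NAC032 and NAC019 each had 3 core matches in these windows, RD26 and VNI2 had 1 each, and ATAF2 had none. NAP, ORE1, ATAF1, NAC102 and NAC055, which are not shown, also had none in their 200 bases. All of these were called higher with both derivatives against DMSO, so the shown set does not represent how cores and responses go together. Within 250 bases, 5 of the 10 members held a core: RD26, NAC019, NAC032, NAP and VNI2. Among the 27444 promoters of that length, 22.9% held one. Within 1000 bases, 7 of the 10 members and 54.4% of all promoters did, and ATAF1, NAC102 and ORE1 did not. The G-box stood within 250 bases of NAC019, NAC032 and NAP, and in 6.5% of all such windows. A core of many NAC binding sites, searched as CATGTG on both strands, was found within 250 bases of none of the 10 members and in 11.1% of all promoters; within 1000 bases it was found in NAC055 and ORE1 and in 37.7% of all promoters. A match is a run of letters and does not show that a factor binds there, and the VNI2 promoter held a core although VNI2 was not called against DMSO.

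All 10 genes had 3 exons in the annotated transcript used here, and their coding lengths ran from 759 bases in VNI2 to 954 bases in NAC019 and NAC055. The closest coding sequences were those of ATAF2 and NAC102, with 81.7% of aligned bases identical, and of NAC019 and NAC055, with 80.4%. No stretch of 50 bases in any member's transcript occurred in the transcript of another gene in the tables. Among genes with values here, those on the other strand overlapped the gene of ATAF1 by 28 bases, of ATAF2 by 158 bases and of NAC102 by 85 bases. Annotated noncoding or other RNA genes without values also overlapped ATAF1 and VNI2 on the other strand. Libraries were strand-specific by the labels, but whether strand was used in counting is not given in the sources used here. Those neighbours averaged between 11.4 and 20.6 TPM in each group, below their partners' group means of 44.7 TPM or more, and reads in the overlap cannot be assigned to either gene if strand was ignored.

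Depth was read from the steps between low TPM values: 1 read in a transcript of 1 kb was worth 0.130 to 0.169 TPM, which gives an estimated 9430000 to 12180000 reads in genes per library. DMSO replicate 1 and ABA replicate 3 stood apart from their groups on principal component PC3, which held 5.6% of the variance, at 19.3 against -9.45 and 3.41 for DMSO and at -45.0 against 2.15 and -12.1 for ABA. DMSO replicate 1 also stood apart on PC2, with 16.9% of the variance, at 0.65 against -28.7 and -26.8 for the other DMSO libraries. Summed over 6 seed storage genes, ABA replicate 3 had 1586 TPM and the other ABA libraries 297 and 634 TPM; in the other groups the sum ran from 364 to 662 TPM with 3'-butyl ABA, from 50.7 to 440 TPM with 3'-propyl ABA and from 182 to 277 TPM with DMSO. Without DMSO replicate 1, ATAF2 was called lower with ABA and no other count of members changed. Without ABA replicate 3, NAC055 was called higher with ABA, VNI2 was called higher with 3'-propyl ABA and lower with 3'-butyl ABA, each against DMSO, and all other calls were as with it.

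Markers of tissues and cell types were read in the same libraries, and those of shoot mesophyll, endodermis and guard cells differed between some of the groups. The 11 shoot mesophyll genes, for chlorophyll-binding proteins and the small subunit of Rubisco, summed to 42930 to 44790 TPM with 3'-butyl ABA, 17340 to 25040 TPM with 3'-propyl ABA, 35440 to 42180 TPM with ABA and 30260 to 35380 TPM with DMSO. Of these 11 genes, 0 rose and 8 fell with 3'-propyl ABA against DMSO, 7 rose and 3 fell with 3'-butyl ABA, and 5 rose and 3 fell with ABA. All 11 were lower with 3'-propyl ABA than with ABA. The 7 root hair genes summed to 76.4 to 150.3 TPM with 3'-butyl ABA, 49.8 to 91.4 TPM with 3'-propyl ABA, 30.2 to 102 TPM with ABA and 62.6 to 172 TPM with DMSO, and the 8 endodermis genes to 114 to 146 TPM, 47.0 to 68.8 TPM, 56.0 to 109 TPM and 65.0 to 142 TPM in the same order. Few of these were called against DMSO. Of the 7 root hair genes, 0 were called with 3'-propyl ABA or ABA, and 1 rose with 3'-butyl ABA. Of the 8 endodermis genes, 1 rose with each compound and 3 fell with 3'-propyl ABA. Between the derivatives, 5 of the 8 endodermis genes and 1 of the 7 root hair genes were higher with 3'-butyl ABA than with 3'-propyl ABA, and 0 were lower. DMSO replicate 1 held the highest DMSO sums, with 172 TPM for root hair genes against 73.5 and 62.6 TPM in the other DMSO libraries, and 142 TPM for endodermis genes against 65.0 and 66.2 TPM. The 4 guard cell genes summed to 41.5 to 54.1 TPM with 3'-butyl ABA, 33.2 to 40.9 TPM with 3'-propyl ABA, 42.7 to 49.9 TPM with ABA and 54.4 to 66.2 TPM with DMSO. Against DMSO, 1 of these 4 rose and 2 fell with each derivative, and 0 rose and 1 fell with ABA. No mesophyll, root hair, endodermis or guard cell marker was at 0 in any library, and the part of cell make-up in the differences of the NAC genes was not tested.

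**Figure D1:**
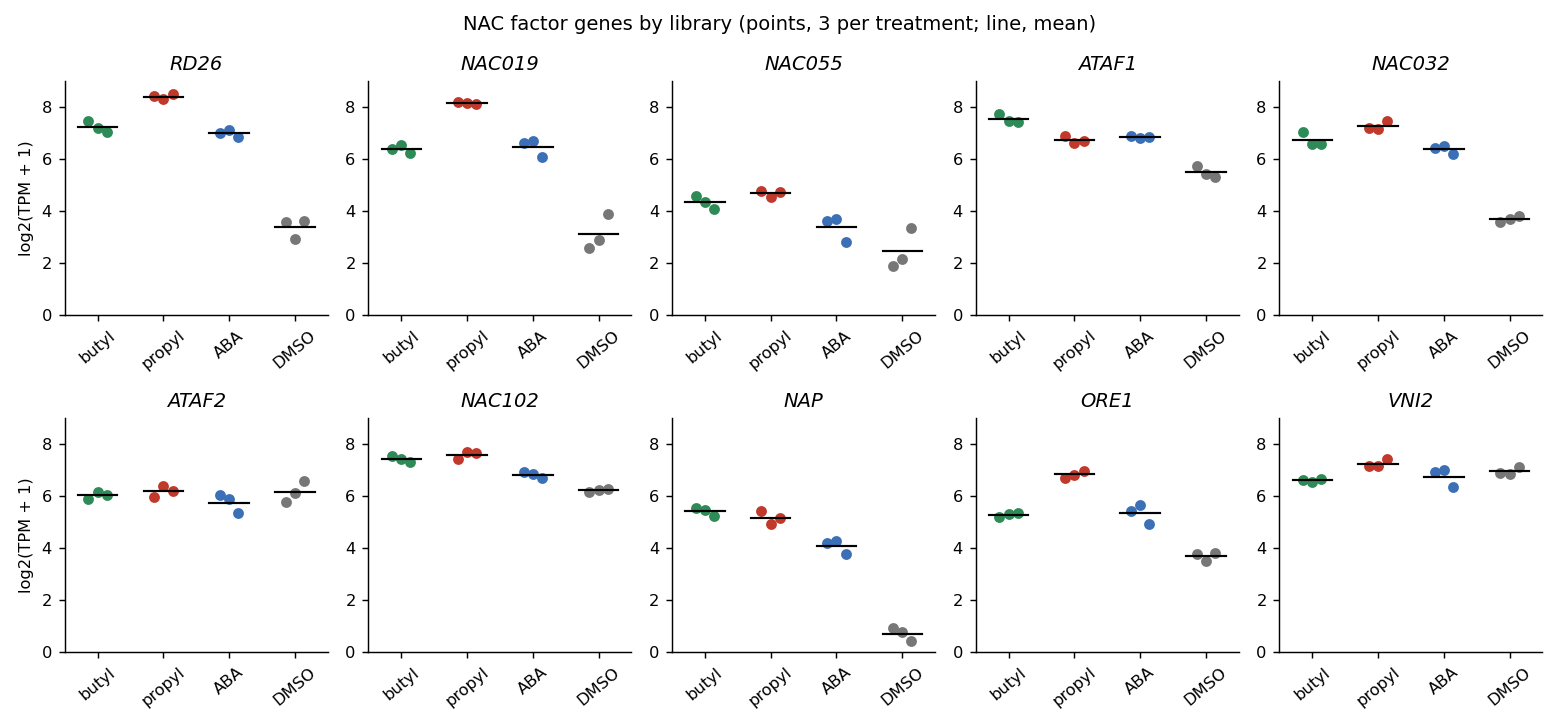
Level of each of the 10 NAC factor genes as log2(TPM + 1) on the vertical axis, with a point per library and a line at the mean of the 3 libraries, for 3'-butyl ABA, 3'-propyl ABA, ABA and DMSO. RD26, NAC019, ATAF1, NAC032, NAC102, NAP and ORE1 do not overlap DMSO with any of the 3 compounds, and ATAF2 overlaps DMSO with all 3. Of all 19528 tested genes, 11825 did not overlap DMSO with 3'-butyl ABA, 13482 with 3'-propyl ABA and 10372 with ABA.

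In DMSO, the genes had very unequal levels on the TPM scale, which is per transcript length. VNI2 led at 122 ± 12.2 TPM (SD, n = 3 here and throughout), with no overlap with the next gene. NAC102 at 73.2 ± 3.59 TPM and ATAF2 at 71.5 ± 19.9 TPM overlapped each other, and ATAF1 followed at 44.7 ± 7.10 TPM. NAC032, ORE1, RD26, NAC019 and NAC055 had means between 12.1 and 5.15 TPM, and each overlapped its neighbour in that order. NAP was last at 0.657 ± 0.264 TPM.

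With the compounds, that order was rearranged. RD26 had the highest mean with 3'-propyl ABA, at 338 ± 22.1 TPM, followed by NAC019 at 284 ± 5.39 TPM and NAC102 at 191 ± 17.9 TPM, with no overlap between RD26 and NAC019 or between NAC019 and NAC102. With 3'-butyl ABA, ATAF1 at 186 ± 20.6 TPM, NAC102 at 171 ± 13.1 TPM and RD26 at 151 ± 23.6 TPM had the highest means, and neighbours in that order overlapped. With ABA, RD26 at 127 ± 11.2 TPM, ATAF1 at 114 ± 2.82 TPM, NAC102 at 112 ± 8.64 TPM and VNI2 at 108 ± 25.2 TPM came first, each overlapping the next. NAC055 had the lowest mean with each compound.

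The 10 genes together summed to 956 ± 79.4 TPM with 3'-butyl ABA, 1470 ± 64.8 TPM with 3'-propyl ABA, 752 ± 99.9 TPM with ABA and 359 ± 39.2 TPM with DMSO. Their share of the summed TPM of 117 NAC family genes, taken by annotation, was 56.0% with 3'-butyl ABA, 62.4% with 3'-propyl ABA, 51.0% with ABA and 35.1% with DMSO. The other 107 NAC genes summed to 750.3 ± 23.4 TPM, 887 ± 57.7 TPM, 722 ± 75.5 TPM and 663 ± 22.5 TPM in that order.

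**Figure D2:**
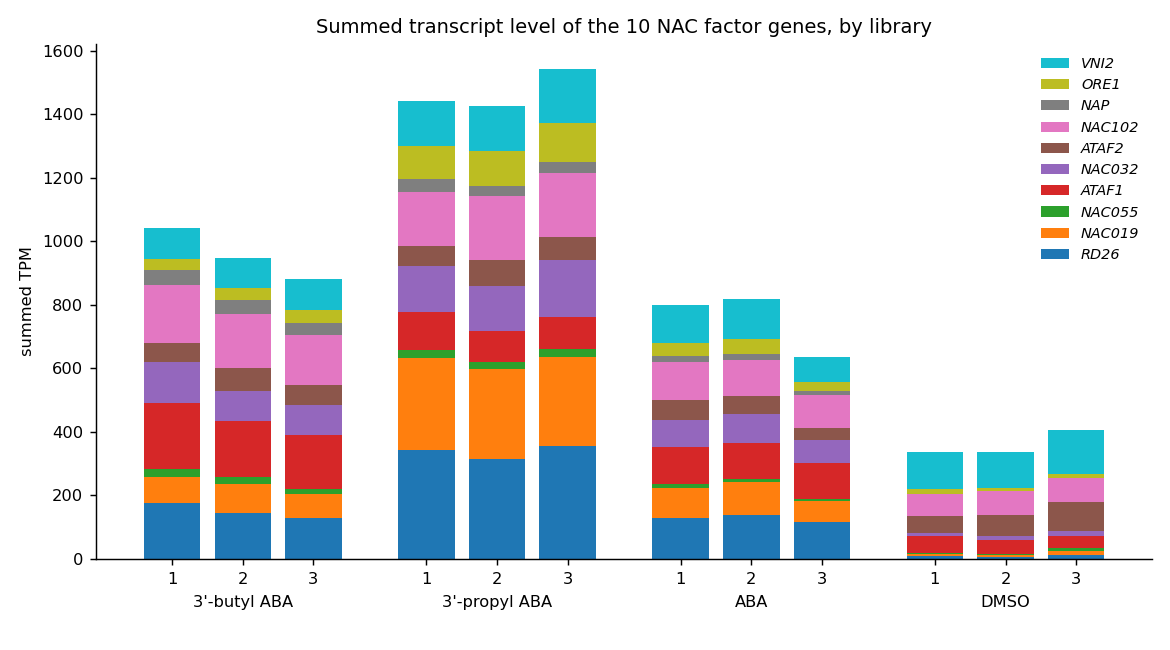
Summed TPM of the 10 NAC factor genes in each of the 12 libraries, stacked by gene, with 3 bars for each of 3'-butyl ABA, 3'-propyl ABA, ABA and DMSO. The bars run from 882 to 1040 TPM with 3'-butyl ABA, from 1425 to 1544 TPM with 3'-propyl ABA, from 637 to 820 TPM with ABA and from 336 to 405 TPM with DMSO, where VNI2 takes 33.4% to 34.9% of each bar.

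The comparison of each compound with DMSO asked which genes respond to ABA and to its derivatives. With 3'-butyl ABA, 8 of the 10 members rose and 0 fell, where 25.1% of all tested genes were called higher and 25.6% lower at an adjusted p under 0.05. With 3'-propyl ABA, 8 rose and 0 fell, where 27.5% of all tested genes were called higher and 38.5% lower. With ABA, 7 rose and 0 fell, where 22% were called higher and 24.7% lower. The median log2 fold change of the 10 members was 1.95 with 3'-butyl ABA, 2.68 with 3'-propyl ABA and 1.48 with ABA, beside medians of 0.00, -0.12 and -0.03 over all tested genes. These 3 comparisons share their DMSO libraries. Fold changes are differences of log2(TPM + 1), which understate the change of low genes, and adjusted p-values come from limma and were corrected over the whole table of tested genes by the Benjamini-Hochberg method.

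**Figure D3:**
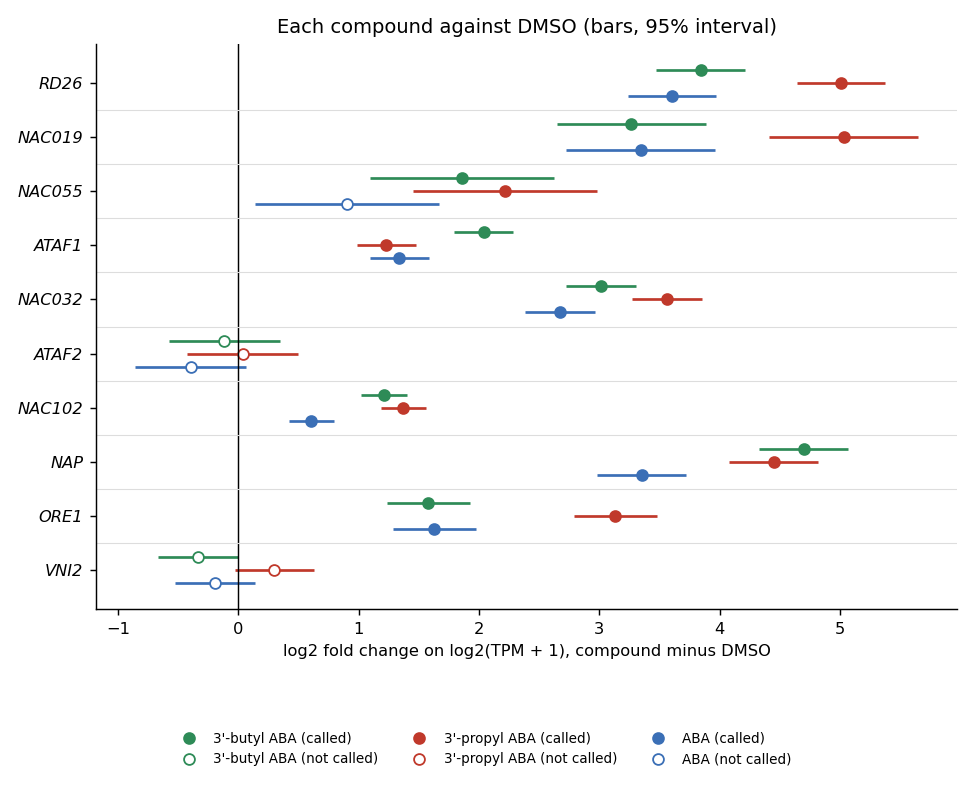
Log2 fold change of each NAC factor gene, compound minus DMSO, with its unadjusted 95% interval; filled points passed an adjusted p of 0.05 and open points did not. RD26, NAC019, NAC032, NAP and ORE1 lie above 1.5 with all 3 compounds, whereas all points of ATAF2 and VNI2 are open.

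RD26, NAC019 and NAC055 are close relatives that were first found as proteins binding the promoter of the dehydration gene ERD1. RD26 (AT4G27410, chromosome 4, 13707192 to 13709170, minus strand), a positive regulator of ABA responses, stood at 176, 146 and 129.8 TPM with 3'-butyl ABA, at 343, 314 and 357 TPM with 3'-propyl ABA, at 128, 137 and 115 TPM with ABA, and at 11.0, 6.73 and 11.4 TPM with DMSO. Every compound library was above every DMSO library, and every 3'-propyl ABA library was above all others. RD26 rose by 3.84 ± 0.17 (SE) on the log2 scale with 3'-butyl ABA (adjusted p = 2.22e-08), by 5.01 ± 0.17 with 3'-propyl ABA (adjusted p = 5.99e-10) and by 3.60 ± 0.17 with ABA (adjusted p = 3.07e-08).

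NAC019 (AT1G52890, chromosome 1, 19696923 to 19698482, minus strand), which also acts in jasmonate signalling downstream of MYC2, stood at 82.8, 91.4 and 75.2 TPM with 3'-butyl ABA, at 289, 284 and 279 TPM with 3'-propyl ABA, at 96.4, 104 and 66.9 TPM with ABA, and at 5.07, 6.41 and 13.7 TPM with DMSO. The 3'-propyl ABA libraries were again the highest, and the 3'-butyl ABA and ABA libraries overlapped each other. NAC019 rose by 3.27 ± 0.28 on the log2 scale with 3'-butyl ABA (adjusted p = 5.21e-06), by 5.03 ± 0.28 with 3'-propyl ABA (adjusted p = 6.94e-08) and by 3.34 ± 0.28 with ABA (adjusted p = 4.97e-06).

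NAC055 (AT3G15500, chromosome 3, 5234457 to 5236196, plus strand), the nearest relative of NAC019 among the members, was much lower. It stood at 22.9, 19.5 and 15.9 TPM with 3'-butyl ABA, at 26.5, 22.6 and 25.9 TPM with 3'-propyl ABA, at 11.2, 12.1 and 5.99 TPM with ABA, and at 2.75, 3.55 and 9.15 TPM with DMSO. DMSO replicate 3 lay above ABA replicate 3, so those groups overlapped, and the libraries of both derivatives lay above all others. NAC055 rose by 1.86 ± 0.35 on the log2 scale with 3'-butyl ABA (adjusted p = 0.00109) and by 2.22 ± 0.35 with 3'-propyl ABA (adjusted p = 0.000184). With ABA its log2 difference was 0.90 with a 95% interval of 0.14 to 1.67, and it was not called (adjusted p = 0.0536). It was called with ABA without DMSO replicate 3 (1.33, adjusted p = 0.00144) and without ABA replicate 3 (1.19, adjusted p = 0.019).

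ATAF1, NAC032, ATAF2 and NAC102 form the ATAF branch of the family. ATAF1 (AT1G01720, chromosome 1, 267993 to 269819, plus strand) is reported to activate NCED3, the gene of a rate-limiting enzyme of ABA synthesis, and ORE1. It stood at 209, 178 and 171 TPM with 3'-butyl ABA, at 118, 97.4 and 101 TPM with 3'-propyl ABA, at 117, 111 and 113 TPM with ABA, and at 52.7, 42.2 and 39.2 TPM with DMSO. Here the 3'-butyl ABA libraries were the highest of all, and the 3'-propyl ABA and ABA libraries overlapped. ATAF1 rose by 2.04 ± 0.11 on the log2 scale with 3'-butyl ABA (adjusted p = 6.61e-08), by 1.23 ± 0.11 with 3'-propyl ABA (adjusted p = 9.37e-07) and by 1.34 ± 0.11 with ABA (adjusted p = 1.57e-06).

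NAC032 (AT1G77450, chromosome 1, 29099839 to 29101759, plus strand), a stress-responsive regulator of senescence and of sugar and nitrogen metabolism, stood at 129, 95.7 and 93.6 TPM with 3'-butyl ABA, at 145, 142 and 178 TPM with 3'-propyl ABA, at 85.2, 90.8 and 73.2 TPM with ABA, and at 11.0, 12.2 and 13.2 TPM with DMSO. None of the 4 groups overlapped its neighbour in the order of the means. The gene rose by 3.02 ± 0.13 on the log2 scale with 3'-butyl ABA (adjusted p = 1.24e-08), by 3.57 ± 0.13 with 3'-propyl ABA (adjusted p = 6.96e-10) and by 2.68 ± 0.13 with ABA (adjusted p = 2.98e-08).

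NAC102 (AT5G63790, chromosome 5, 25526509 to 25528281, minus strand), known for a role in germination under low oxygen, was already high with DMSO and rose less. It stood at 183, 172 and 157 TPM with 3'-butyl ABA, at 171, 202 and 201 TPM with 3'-propyl ABA, at 119, 114 and 103 TPM with ABA, and at 69.1, 74.6 and 75.9 TPM with DMSO. The derivatives overlapped each other and lay above ABA, which lay above DMSO. NAC102 rose by 1.21 ± 0.09 on the log2 scale with 3'-butyl ABA (adjusted p = 4.67e-07), by 1.37 ± 0.09 with 3'-propyl ABA (adjusted p = 3.84e-08) and by 0.61 ± 0.09 with ABA (adjusted p = 0.000115).

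ATAF2 (AT5G08790, chromosome 5, 2858849 to 2860558, minus strand), a wound-induced factor reported to repress genes of brassinosteroid inactivation, was not called with any compound. It stood at 58.3, 70.8 and 63.8 TPM with 3'-butyl ABA, at 61.5, 81.6 and 72.6 TPM with 3'-propyl ABA, at 63.8, 57.5 and 39.7 TPM with ABA, and at 53.6, 68.0 and 92.9 TPM with DMSO. All 4 groups overlapped, and the DMSO libraries had the widest spread. The log2 difference was -0.12 (95% interval -0.58 to 0.34, adjusted p = 0.666) with 3'-butyl ABA, 0.04 (-0.43 to 0.50, adjusted p = 0.892) with 3'-propyl ABA and -0.40 (-0.86 to 0.06, adjusted p = 0.144) with ABA. Without DMSO replicate 1, ATAF2 fell with ABA, by 0.59 on the log2 scale (adjusted p = 0.0351). ATAF2 and its closest member in sequence, NAC102, thus had intervals against DMSO that did not overlap with any of the 3 compounds.

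NAP, ORE1 and VNI2 are known from leaf ageing. NAP (AT1G69490, chromosome 1, 26122080 to 26123514, plus strand), an activator of leaf senescence, stood at 45.7, 43.2 and 36.7 TPM with 3'-butyl ABA, at 42.1, 29.2 and 34.6 TPM with 3'-propyl ABA, at 17.1, 18.2 and 12.6 TPM with ABA, and at 0.878, 0.729 and 0.364 TPM with DMSO. The derivatives overlapped each other, lay above ABA in every library, and DMSO was lowest. The DMSO values rest on an estimated 7, 7 and 3 reads, against 341, 389 and 305 reads with 3'-butyl ABA. NAP rose by 4.70 ± 0.17 on the log2 scale with 3'-butyl ABA (adjusted p = 1.99e-09), by 4.45 ± 0.17 with 3'-propyl ABA (adjusted p = 7.15e-10) and by 3.35 ± 0.17 with ABA (adjusted p = 3e-08). The ratios of mean TPM to DMSO were larger, at 63.8 with 3'-butyl ABA, 53.7 with 3'-propyl ABA and 24.3 with ABA.

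ORE1 (AT5G39610, chromosome 5, 15858398 to 15859911, minus strand) drives age-dependent cell death, and its transcript is a target of the microRNA miR164. The mature miRNA and the best matching stretches are shown because ORE1 was the only member with a site of at most 4 mismatches. Capitals in a site mark bases that pair with miR164a by Watson-Crick rules; the miRNA is given as RNA, the sites as DNA on the strand of the gene, all 5′ to 3′ and read from the TAIR10.1 genome. The miR164a sequence lies at chr2:19520770-19520790, the site in ORE1 at chr5:15858797-15858817 and, for comparison, that in NAC100, another target, at chr5:24701687-24701707.
miR164a: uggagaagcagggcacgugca
ORE1 site: ctCACGTGaCCTGCTTCTCCg
NAC100 site: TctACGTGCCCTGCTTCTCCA

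The ORE1 site lies in the coding part of exon 3 of 3 and paired at 17 of 21 bases, and the NAC100 site paired at 19. In the other 9 members the best stretch had 8 to 10 mismatches. Of 27440 transcripts searched, 13 held a stretch with at most 4 mismatches. The genes of miR164 itself are not rows of the tables. Of the 5 other listed targets, 4 were tested: 3 rose and 0 fell with 3'-butyl ABA, 3 rose and 1 fell with 3'-propyl ABA, and 2 rose and 1 fell with ABA, each against DMSO. NAC100 rose by 1.69 on the log2 scale with 3'-butyl ABA (adjusted p = 1.72e-06), by 1.67 with 3'-propyl ABA and by 1.48 with ABA.

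ORE1 stood at 35.2, 38.4 and 39.9 TPM with 3'-butyl ABA, at 103, 111 and 125 TPM with 3'-propyl ABA, at 41.7, 48.9 and 29.3 TPM with ABA, and at 12.8, 10.2 and 13.1 TPM with DMSO. The 3'-propyl ABA libraries were the highest, the 3'-butyl ABA libraries lay within the range of ABA, and DMSO was lowest without overlap. ORE1 rose by 1.58 ± 0.16 on the log2 scale with 3'-butyl ABA (adjusted p = 6.6e-06), by 3.13 ± 0.16 with 3'-propyl ABA (adjusted p = 8.91e-09) and by 1.63 ± 0.16 with ABA (adjusted p = 5.77e-06).

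VNI2 (AT5G13180, chromosome 5, 4196256 to 4197940, plus strand), which restrains the xylem regulator VND7 and is reported to prolong leaf life through cold and dehydration genes, was not called against DMSO. It stood at 97.0, 91.7 and 99.3 TPM with 3'-butyl ABA, at 139.7, 141 and 170.2 TPM with 3'-propyl ABA, at 119, 126 and 79.2 TPM with ABA, and at 118, 112 and 136 TPM with DMSO. Every 3'-propyl ABA library was above and every 3'-butyl ABA library below the DMSO libraries, whereas ABA and DMSO overlapped. The log2 difference was -0.34 (95% interval -0.67 to -0.01, adjusted p = 0.083) with 3'-butyl ABA, 0.30 (-0.03 to 0.63, adjusted p = 0.101) with 3'-propyl ABA and -0.20 (-0.53 to 0.13, adjusted p = 0.316) with ABA. With only the 6 libraries compared, it was called lower with 3'-butyl ABA (adjusted p = 0.00889) and higher with 3'-propyl ABA (adjusted p = 0.035).

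The compounds were then compared with each other, which asks how a propyl or butyl group at the 3' position of ABA goes with the response at the same dose and time. There were 3 such pairs, and p-values were adjusted over all genes within each pair. Between 3'-butyl ABA and 3'-propyl ABA, 1 of the 10 members was higher with 3'-butyl ABA, where 31.2% of all tested genes were, and 5 were lower, where 17.6% of all were. Between 3'-butyl ABA and ABA, 3 members were higher and 0 lower, where 0.819% and 0.783% of all tested genes were called. Between 3'-propyl ABA and ABA, 8 members were higher and 0 lower, where 15.5% and 26.4% of all tested genes were called. With median-of-ratios scaling these shares of all genes turned round in the pairs with 3'-propyl ABA, to 21.8% higher and 24.4% lower for 3'-butyl ABA against 3'-propyl ABA and to 21.2% higher and 18.1% lower for 3'-propyl ABA against ABA. The members called were then 1 higher and 6 lower, and 8 higher and 0 lower. In the values as deposited, the median log2 difference of the members was -0.45, 0.31 and 0.99 in these pairs, beside 0.13, 0.01 and -0.10 over all tested genes.

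**Figure D4:**
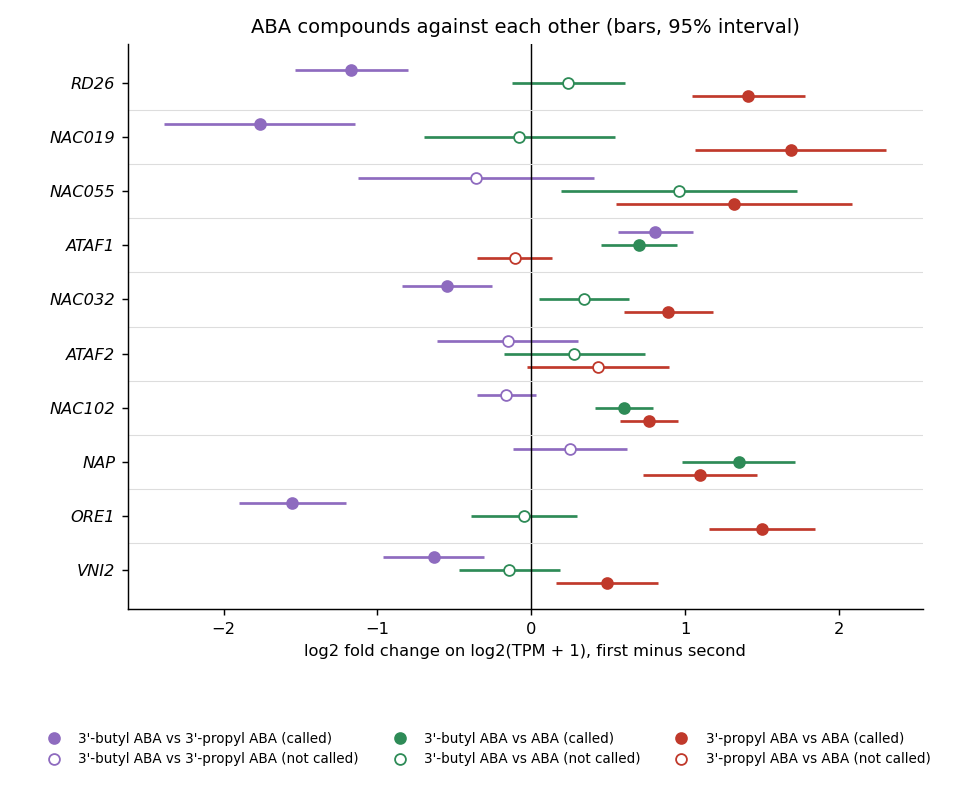
Log2 difference of each NAC factor gene between ABA compounds, first named minus second, with its unadjusted 95% interval; filled points passed an adjusted p of 0.05. RD26, NAC019 and ORE1 lie below -1 for 3'-butyl ABA against 3'-propyl ABA and above 1 for 3'-propyl ABA against ABA, and ATAF1 lies on the opposite side in the first of these.

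RD26, NAC019 and ORE1 were lower with 3'-butyl ABA than with 3'-propyl ABA by over 1 on the log2 scale. The difference was -1.17 (95% interval -1.54 to -0.80, adjusted p = 0.000169) for RD26, -1.76 (-2.39 to -1.14, adjusted p = 0.000521) for NAC019 and -1.55 (-1.90 to -1.21, adjusted p = 1.25e-05) for ORE1. NAC032 (-0.55 ± 0.13, adjusted p = 0.0051) and VNI2 (-0.64 ± 0.15, adjusted p = 0.00477) were also lower with 3'-butyl ABA. ATAF1 went the other way and was higher with 3'-butyl ABA by 0.81 ± 0.11 (adjusted p = 0.000111). NAC055 (-0.36, 95% interval -1.12 to 0.41), ATAF2 (-0.15, -0.61 to 0.31), NAC102 (-0.16, -0.35 to 0.03) and NAP (0.25, -0.12 to 0.62) were not called in this pair, which does not show that the derivatives acted alike on them. NAC055 was called lower with 3'-butyl ABA with only the 6 libraries compared (adjusted p = 0.0396), and NAC102 without 3'-propyl ABA replicate 1 (adjusted p = 0.0394).

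Against ABA, 3'-butyl ABA gave higher levels of ATAF1 (0.70 ± 0.11, adjusted p = 0.015), NAC102 (0.60 ± 0.09, adjusted p = 0.0103) and NAP (1.35 ± 0.17, adjusted p = 0.00847), with no overlap between the libraries. Without 3'-butyl ABA replicate 1, none of the 3 was called: the differences were then 0.61 (adjusted p = 0.0812), 0.55 (0.0584) and 1.28 (0.0556), and the genes called higher over the whole table numbered 6 instead of 160. ATAF1 was also not called without ABA replicate 2 (adjusted p = 0.0695). The other 7 members were not called. Their differences were 0.24 (95% interval -0.13 to 0.61) for RD26, -0.08 (-0.70 to 0.54) for NAC019 and 0.96 (0.20 to 1.73) for NAC055. For NAC032 the difference was 0.34 (0.05 to 0.63), for ATAF2 0.28 (-0.18 to 0.74), for ORE1 -0.05 (-0.39 to 0.29) and for VNI2 -0.14 (-0.47 to 0.19).

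Against ABA, 3'-propyl ABA gave higher levels of 8 members. NAC019 (1.69 ± 0.28, adjusted p = 0.000858), ORE1 (1.50 ± 0.16, adjusted p = 2.21e-05), RD26 (1.41 ± 0.17, adjusted p = 6.36e-05), NAC055 (1.32 ± 0.35, adjusted p = 0.011) and NAP (1.10 ± 0.17, adjusted p = 0.000303) were above 1 on the log2 scale. NAC032 (0.89 ± 0.13, adjusted p = 0.000254), NAC102 (0.77 ± 0.09, adjusted p = 3.4e-05) and VNI2 (0.49 ± 0.15, adjusted p = 0.0209) were higher by less. The call of VNI2 was lost without 3'-propyl ABA replicate 3 (adjusted p = 0.0871) and with only the 6 libraries compared (adjusted p = 0.0675). ATAF1 (-0.11, 95% interval -0.35 to 0.14) and ATAF2 (0.43, -0.03 to 0.89) were not called. The 3 pairs share libraries, so their values are set side by side and not counted as separate evidence.

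**Figure D5:**
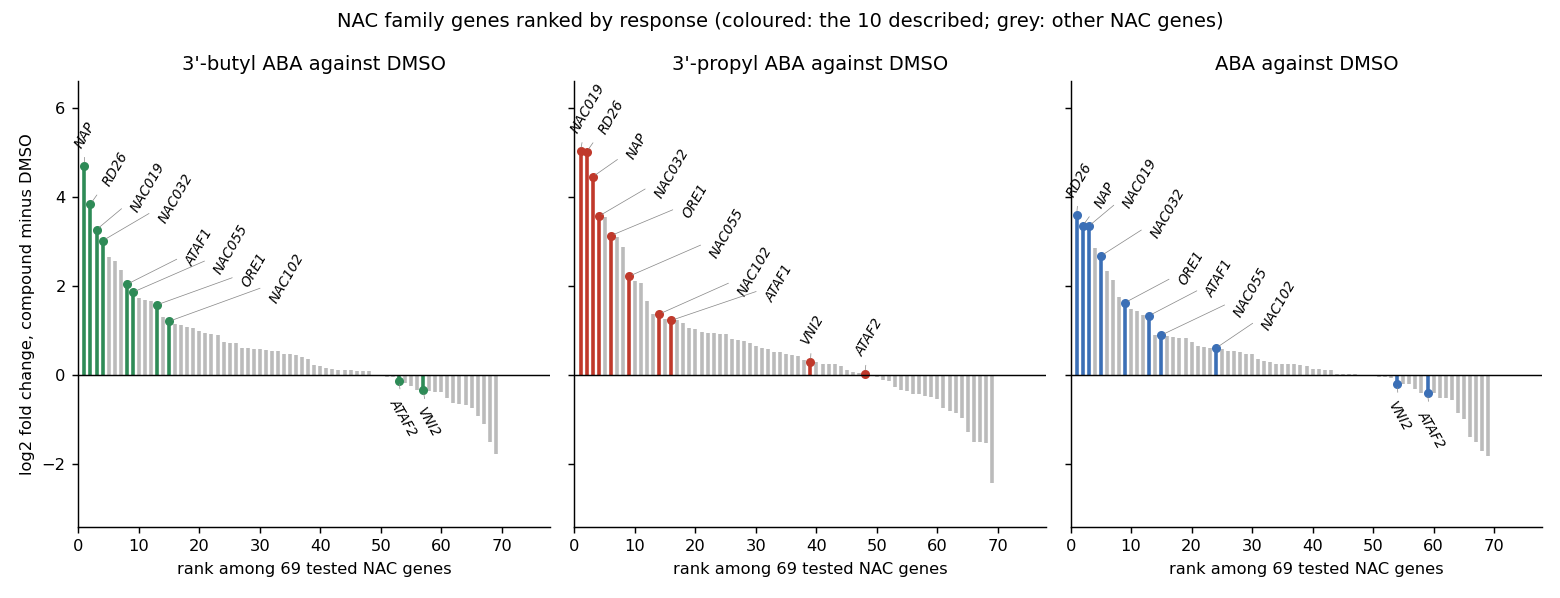
Log2 fold change, compound minus DMSO, of the 69 NAC family genes tested, ranked from highest to lowest in each comparison; coloured bars with names are the 10 genes described and grey bars are other NAC genes. With 3'-butyl ABA and 3'-propyl ABA, 4 of the 10 hold ranks 1 to 4, and with ABA 3 of them hold ranks 1 to 3.

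Within the NAC family, 69 of 117 genes passed the filter. The filter is a mean over all 12 libraries, so a gene high only with the compounds can pass. NAP at 0.657 TPM, NAC060 at 0.494 TPM and NAC074 at 0.345 TPM with DMSO passed in this way. A NAC gene at 1.82 TPM with DMSO and lower with each compound was left out. The ranks and the counts of rising and falling genes below therefore depend in part on the filter. NAP, RD26, NAC019 and NAC032 had ranks 1 to 4 by log2 fold change with 3'-butyl ABA; NAC019, RD26, NAP and NAC032 did with 3'-propyl ABA; and RD26, NAP and NAC019 had ranks 1 to 3 with ABA. ATAF2 and VNI2 ranked 48 or lower and 39 or lower. Of the 59 other NAC genes tested, 25 rose and 10 fell with 3'-butyl ABA, 30 rose and 13 fell with 3'-propyl ABA, and 22 rose and 10 fell with ABA. Among the strongest of these, ANAC087 averaged 29.8 TPM with 3'-butyl ABA, 69.6 TPM with 3'-propyl ABA, 30.9 TPM with ABA and 4.95 TPM with DMSO. NAC074 averaged 7.54, 10.8, 8.86 and 0.345 TPM in the same order and rose with each compound, whereas NAC044 averaged 2.00, 0.888, 1.94 and 9.17 TPM and fell with each. NAC047 and NAC058 with 3'-propyl ABA, and NAC060 and NAC089 with 3'-butyl ABA, and NAC060 and NAC058 with ABA, were also among the 5 largest changes of the other NAC genes.

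Lists of genes known to act with the members are read against the same shares of all tested genes as the members. Of 10 listed upstream regulators, all tested, 8 rose and 0 fell with 3'-butyl ABA, 7 rose and 1 fell with 3'-propyl ABA, and 6 rose and 0 fell with ABA, with median log2 fold changes of 0.88, 0.91 and 0.63. The bZIP factor gene ABF3 averaged 146 TPM with 3'-butyl ABA, 179 TPM with 3'-propyl ABA, 122 TPM with ABA and 13.3 TPM with DMSO, and rose with each compound. ABF2 and ABI5, other bZIP genes of ABA responses, and MYC2, the jasmonate factor upstream of NAC019, also rose with each. The rise of MYC2 with ABA was 0.50 on the log2 scale and near the threshold (adjusted p = 0.045). Its ABA and DMSO libraries overlapped, with 29.1 TPM in ABA replicate 3 and 29.3 TPM in DMSO replicate 3. Of the other listed regulators, EIL1 fell with 3'-propyl ABA by 0.38 on the log2 scale (adjusted p = 0.00335). EIN2 and EIN3 were not called with 3'-propyl ABA and rose with 3'-butyl ABA. With ABA, none of EIL1, EIN2 and EIN3 was called. MYC2 averaged 38.5, 54.9, 34.2 and 24.3 TPM in that order.

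Genes reported to be activated by one of the members mostly rose. Of 18 tested of 19 listed, 15 rose and 0 fell with 3'-butyl ABA, and 16 rose and 0 fell with 3'-propyl ABA and with ABA, with median log2 fold changes of 1.95, 2.27 and 2.04. Many of them also respond to ABA through ABF factors. RD29B and RD29A, dehydration genes, and COR15A, a chloroplast protective protein, are reported targets of VNI2, which was itself not called. RD29B averaged 266 TPM with 3'-butyl ABA, 1015 TPM with 3'-propyl ABA, 320.2 TPM with ABA and 2.35 TPM with DMSO. HAI1, also called SAG113, a PP2C phosphatase gene reported as a target of NAP, averaged 174 TPM with 3'-butyl ABA, 333 TPM with 3'-propyl ABA, 155 TPM with ABA and 1.32 TPM with DMSO. NCED3 and ORE1 are both reported ATAF1 targets, and NCED3 is given here as one of the 3 genes most like ATAF1 in pattern, not for the size of its change. NCED3 averaged 114 TPM with 3'-butyl ABA, 40.3 TPM with 3'-propyl ABA, 56.2 TPM with ABA and 8.38 TPM with DMSO, and it was higher with 3'-butyl ABA than with ABA by 1.01 on the log2 scale (adjusted p = 0.0409). Like ATAF1, NCED3 had its highest mean with 3'-butyl ABA, and for both genes 3'-propyl ABA against ABA was not called. Because NCED3 was picked for its likeness to ATAF1 in these same libraries, that choice fixed the shared pattern. It is no evidence of regulation. ORE1 instead had its highest mean with 3'-propyl ABA. ABCG40 and TRE1 of the same list were not called with any compound against DMSO.

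The 6 genes reported to be repressed or inhibited by a member did not move one way. With 3'-butyl ABA, 3 rose and 0 fell; with 3'-propyl ABA, 1 rose and 3 fell; with ABA, 2 rose and 0 fell. With 3'-propyl ABA, 27.5% of all tested genes were called higher and 38.5% lower, so 1 and 3 of 6 are near the background. BAS1, a brassinosteroid-inactivating enzyme gene repressed by ATAF2, averaged 5.35 TPM with 3'-butyl ABA, 1.62 TPM with 3'-propyl ABA, 5.35 TPM with ABA and 5.67 TPM with DMSO, and fell with 3'-propyl ABA by 1.34 on the log2 scale (adjusted p = 9.1e-06). ICS1, the salicylic acid synthesis gene reported to be repressed by NAC019, NAC055 and RD26, averaged 10.2, 5.08, 9.03 and 9.67 TPM in that order and also fell with 3'-propyl ABA (adjusted p = 0.00331). GLK2, a chloroplast development factor whose protein activity ORE1 inhibits, rose with each compound. GLK1 of the same list fell with 3'-propyl ABA and rose with 3'-butyl ABA and with ABA. RNA levels do not measure protein activity. SOB7, another brassinosteroid-inactivating enzyme gene, rose with 3'-butyl ABA.

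Chlorophyll breakdown genes include several reported targets of stress and senescence NACs. Of 8 listed, 5 rose and 0 fell with 3'-butyl ABA, 7 rose and 1 fell with 3'-propyl ABA, and 7 rose and 0 fell with ABA, with median log2 fold changes of 0.55, 1.51 and 0.78. PAO, which opens the chlorophyll ring, averaged 46.9 TPM with 3'-butyl ABA, 274 TPM with 3'-propyl ABA, 82.5 TPM with ABA and 23.7 TPM with DMSO. NYE1, NYE2 and PPH rose with each compound. Between 3'-butyl ABA and 3'-propyl ABA, 1 of the 8 was higher and 6 were lower with 3'-butyl ABA. In the same pair all 11 shoot mesophyll markers were higher with 3'-butyl ABA, and the part of that difference in these counts was not tested.

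Of 9 listed senescence markers, 8 were tested: 4 rose and 1 fell with 3'-butyl ABA, 6 rose and 1 fell with 3'-propyl ABA, and 4 rose and 2 fell with ABA. SAG29, a sugar transporter gene, averaged 96.3 TPM with 3'-butyl ABA, 1319 TPM with 3'-propyl ABA, 163 TPM with ABA and 9.31 TPM with DMSO. SAG13 rose with each compound, SEN4 rose with 3'-propyl ABA and ABA, and SEN1 rose with 3'-butyl ABA. SAG101 fell with each compound, and WRKY53 fell with ABA but rose with 3'-propyl ABA. SAG12, the cysteine protease gene used as a marker of late senescence, was listed at 0 in all 4 groups.

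The genes whose pattern was most like each member were taken by Pearson correlation of log2(TPM + 1) over the 12 libraries. The libraries fall into 4 treatment groups, so such values mostly reflect the group means and are given as a description. RD26 was most like SUS3, a sucrose synthase gene (r = 0.998), AT5G64550 (0.998) and ABI1, a PP2C phosphatase gene of ABA signalling (0.997). NAC032 was most like MGL (0.996), ABI1 (0.996) and AFP1 (0.992), and NAP most like CIPK5 (0.991), OZF1 (0.991) and AT5G60680 (0.991). NAC019 was most like AT5G61820 (0.995), AT2G44290 (0.992) and GPX6 (0.992), and ORE1 most like RD21A (0.996), GT72B1 (0.994) and ECT8 (0.993). ATAF1 was most like AT5G57100 (0.988), HFR1 (0.986) and NCED3 (0.985).

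The remaining members had less close partners. NAC102 was most like ARPC3 (0.979), AT4G28703 (0.975) and AT1G63420 (0.974), and NAC055 most like AT1G13880 (0.972), AT2G48020 (0.960) and AT3G47550 (0.959). VNI2 was most like ERD5 (0.952), AT4G27652 (0.936) and UBP6 (0.933). For ATAF2, whose groups all overlapped, the highest value was 0.886, with HYH, followed by UGT85A1 (0.870) and AT1G76520 (0.869).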

How the data were processed

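Poly(A) RNA of Arabidopsis seedlings was sequenced in pairs of reads as strand-specific libraries, 12 in all, per the labels' protocols. The deposited values are TPM made by the authors, with each library summing to 1000000 over 27655 genes. Base calling files were converted with bcl2fastq and the genome build was TAIR10, per the submitters' processing notes. Which aligner, counter and gene annotation release the authors used is not stated by the labels or files. Every column of per-sample values was used.

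From these values, log2(TPM + 1) was fitted with limma 3.58.1 in R 4.3.3, with a mean per treatment, all 12 libraries, trend and robust moderation, and 8 residual degrees of freedom. The test covered 19528 genes whose mean reached 1 TPM and left out 8127, with Benjamini-Hochberg adjustment over all of them and a threshold of 0.05. A test for read counts had been considered only if the files held counts; they hold TPM, and the limma fit on log2 values applied. The fit was tested on simulated data. Intervals are unadjusted and at 95%. Among genes with low values, 99.2% to 99.8% per library lay within 0.05 of a whole number of reads, 1 read in 1 kb being worth 0.130 to 0.169 TPM; depth is estimated from this step and covers counting error only.

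Gene models and sequences came from TAIR10.1 (RefSeq), which held 27445 of the 27655 identifiers. The NAC family was taken as genes whose annotated symbol, synonym or product names a NAC domain protein. The text names all members, the 5 largest called and non-overlapping changes of other NAC genes per comparison with DMSO, up to 4 genes per list by absolute change against DMSO, and the 3 most alike genes per member, which is how NCED3 is named. Outside this rule it names EIL1, EIN2, EIN3, ABCG40, TRE1, GLK1, SAG101 and WRKY53. Each of them fell or was not called with some compound. Members and lists were chosen with earlier results of these data known. Alternatives tried were another pseudocount, no filter, other scalings, fewer libraries, a replicate block and a fold threshold. Python 3.11.15, pandas 2.3.3 and matplotlib 3.10.9 were used for tables and figures.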

Additional observations from a re-analysis of the deposited data

How the results depend on the processing

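Of 1080 log2 fold changes of single members under alternatives, 1053 kept their direction and side of the threshold, 12 were newly called, 6 lost their call and 9 changed sign, none of the 9 being called. Of 228 counts of members called, 8 moved, either by over 1.5 times or from or to 0. A pseudocount of 0.1 and no filter on low genes changed no call. Requiring an absolute log2 difference of at least 1 left 5 of 8 members higher with 3'-propyl ABA than with ABA, 1 of 3 higher with 3'-butyl ABA than with ABA, and 0 of 1 higher and 3 of 5 lower with 3'-butyl ABA than with 3'-propyl ABA. The threshold itself removes the smaller differences. The share of all tested genes that pass it was not counted, so these counts have no background and describe the members alone. With only the 6 libraries compared, 1 member was lower with 3'-butyl ABA than with DMSO, and none with all 12 in 1 fit. Leaving out 1 library, that count ran from 0 to 1, the count lower with ABA than with DMSO from 0 to 1, and the count higher with 3'-butyl ABA than with ABA from 0 to 3. The signs that changed were those of ATAF2 with 3'-propyl ABA (-0.0055 with quantile normalization, -0.06 without 3'-propyl ABA replicate 2, and -0.1518 to 0.24 over all libraries left out in turn) and with 3'-butyl ABA (-0.3055 to 0.0863, the highest without DMSO replicate 3), VNI2 with ABA (-0.3184 to 0.0119, the highest without ABA replicate 3), each against DMSO, and, against ABA, ATAF1 with 3'-propyl ABA (0.0017 with median-of-ratios scaling), and with 3'-butyl ABA NAC019 (-0.2696 to 0.0454) and ORE1 (-0.2527 to 0.1074), both highest without ABA replicate 2, ORE1 also being at 0.00 without 3'-butyl ABA replicate 1; the cause was not tested. Median-of-ratios scaling moved the median of all genes for 3'-propyl ABA against DMSO from -0.12 to 0.00 and for 3'-butyl ABA against 3'-propyl ABA from 0.13 to 0.01; with it NAC055 was called with ABA (adjusted p = 0.0483), VNI2 with 3'-propyl ABA (0.0211), both against DMSO, and NAC102 between 3'-butyl ABA and 3'-propyl ABA (0.0253). The labels do not say that replicate numbers mark a shared batch, so the numbers were not used as pairs. Same-numbered libraries did not deviate together in every pair (r from -0.17 to 0.30 for ABA and DMSO, 0.02 to 0.24 for 3'-propyl ABA and DMSO, and 0.03 to 0.33 for 3'-butyl ABA and DMSO). Differently numbered libraries had r from -0.35 to 0.39, -0.23 to 0.11 and -0.32 to 0.16 in the same order. With a replicate block, 8, 8 and 7 members were higher with 3'-butyl ABA, 3'-propyl ABA and ABA than with DMSO, as without it, and no member's call changed. Over all tested genes, those higher with 3'-butyl ABA than with ABA then numbered 436 instead of 160. NAP in DMSO, at an estimated 3 to 7 reads, is the member that depth limits most.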
